A study of Homo sapiens with 12 samples.

Results

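The comparison described here is EDTA against NA in the Addback derivative of MCF10-A, an established line of human mammary epithelial cells that is not tumour-derived. It rests on the libraries labelled Addback EDTA 1, Addback EDTA 2, Addback NA 1 and Addback NA 2, which are 4 of the 12 libraries of the series and were picked by those labels alone. The other 8 libraries, 2 for each of NA and EDTA in the derivatives labelled Vector and B4-4, served to estimate the spread between libraries and to test whether the EDTA effect differed between derivatives. In all 6 groups the cells had been grown with 5% horse serum, trypsinized and then held for 3 hours without serum on poly-HEMA, a coating that prevents attachment. The series concerns the integrin made of the alpha 6 and beta 4 chains in cells without matrix contact. EDTA binds calcium and other divalent cations. For the dose and timing of EDTA, the meaning of NA, the making of the B4-4 and Addback lines and whether each is 1 clone, no value is given in the sources used here. Nothing in the labels says that the 2 libraries of a group came from separate cultures, so the p-values cover only the differences between these samples, and those may be technical.

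Epithelial cells attach to laminin through the alpha 6 beta 4 integrin of hemidesmosomes and to other matrix proteins through other integrin pairs. They attach to each other through cadherins, which need extracellular calcium, and seal the space between them with tight junctions. Detached epithelial cells deprived of these contacts can die by anoikis or survive in clusters, and keratinocytes held in suspension are known to start squamous differentiation.

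Levels are given as CPM, which are read counts scaled to a common library total with TMM factors, and differences as log2 fold changes of EDTA over NA with their standard error (SE). The SE was worked back from the fold change and the F statistic of the test named next, and it is unreliable for genes with few counts. A gene is said to have risen or fallen, or is called, when its p in edgeR's quasi-likelihood test was under 0.05 after Benjamini-Hochberg adjustment across the 15749 genes tested. The 4 Addback libraries held 17165326 to 18654590 counts, and the 12 libraries 15685376 to 22156173. ITGB4 (ENSG00000132470, GRCh38 chr17:75721328-75757818), which encodes beta 4, had 1060 and 1080 CPM in Addback NA and at 1260 and 1530 CPM in Addback EDTA. In Vector the level of ITGB4 ranged from 1680 to 1850 CPM. In B4-4 both ends of its range lay in the NA pair, with 182 CPM for B4-4 NA 1 but 395 CPM for B4-4 NA 2. The B4-4 EDTA libraries lay between these, at 372 and 390 CPM. The labelled cell type was checked against markers of mammary basal epithelium, of which all 8 had a mean of at least 1 CPM, and KRT5, a basal keratin, stood at 4610 to 5980 CPM. The summed level of these 8 markers came to 10900 and 10500 CPM in NA, against 11900 and 10800 CPM in EDTA. Because RNA was pooled from many cells, fewer cells of a type and less RNA per cell cannot be told apart.

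Within Addback the EDTA libraries lay much farther apart than the NA libraries. The pairs of the other derivatives were not compared in this way. Among the 10573 genes that averaged 5 CPM or more in Addback, 238 (2.25%) differed by at least 2-fold between EDTA 1 and EDTA 2, against 10 (0.0946%) between NA 1 and NA 2. Of the 238 genes, 159 were higher in EDTA 1 and 79 in EDTA 2. The correlation of log2 levels across these genes, which are not independent replicates, was 0.978 for the EDTA pair and 0.9958 for the NA pair. Addback EDTA 2 is also the only one of the 12 libraries whose description code ends in L007, where the other 11 end in L008, and the labels do not say what that code stands for. The part of that difference in the results was not tested, and each result below is given with both EDTA libraries singly.

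**Figure D1:**
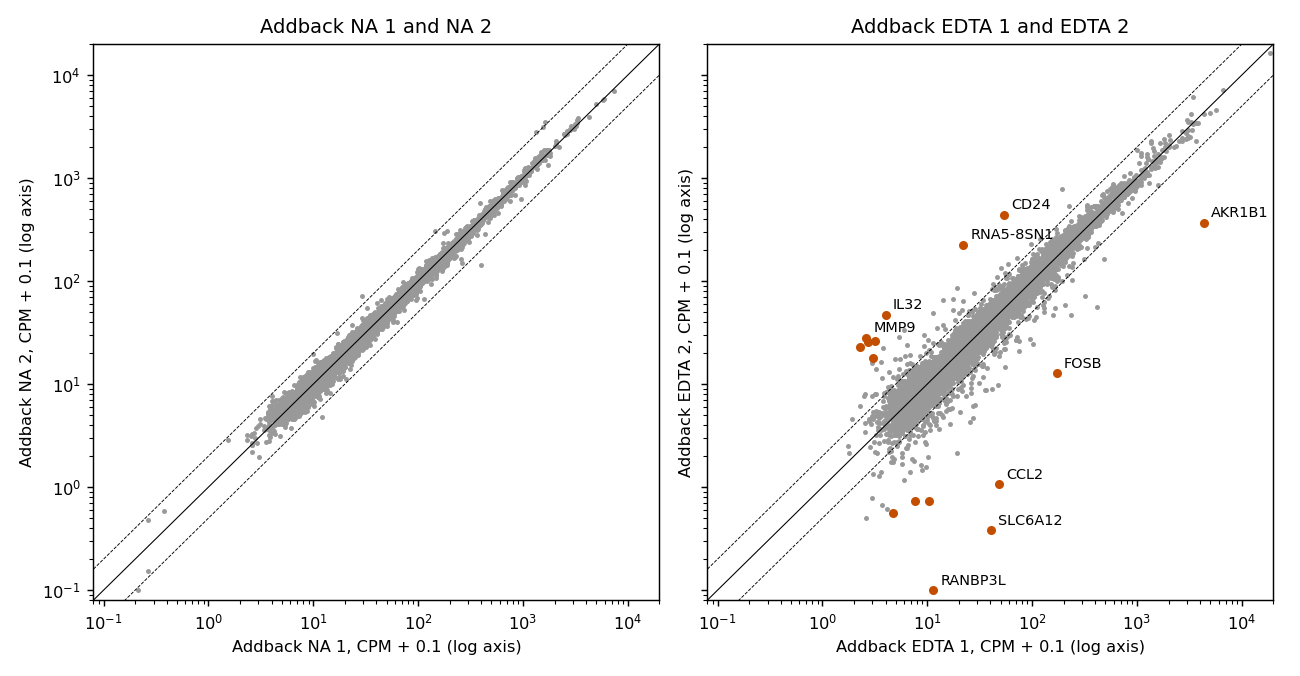
CPM plus 0.1 on log axes for the 10573 genes of at least 5 CPM, NA 1 against NA 2 on the left and EDTA 1 against EDTA 2 on the right, with dashed lines at a 2-fold difference. Orange points are the 8 genes per direction with the largest ratio between the EDTA libraries; 10 genes lie beyond the dashed lines in the NA pair and 238 in the EDTA pair.

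Among the genes farthest apart between the EDTA libraries was SLC6A12, a transporter of betaine, which stood at 33.2 and 32.3 CPM in NA, 40.1 CPM in EDTA 1 and 0.284 CPM in EDTA 2. CCL2, a chemokine that attracts monocytes, stood at 50.2 and 50.3 CPM in NA, 48.2 CPM in EDTA 1 and 0.967 CPM in EDTA 2. AKR1B1, an aldose reductase that makes sorbitol, stood at 2610 and 2690 CPM in NA, 4370 CPM in EDTA 1 and 369 CPM in EDTA 2. These 3 genes had the NA level or more in EDTA 1 and a level several-fold lower in EDTA 2, and none was called. In the other direction, IL32, a cytokine, stood at 4.2 and 3.9 CPM in NA, 3.92 CPM in EDTA 1 and 46.9 CPM in EDTA 2. RNA5-8SN1, one of several near-identical 5.8S ribosomal RNA genes that may share reads, stood at 19.5 and 18.8 CPM in NA, 21.8 CPM in EDTA 1 and 225 CPM in EDTA 2. Neither was called, with adjusted p = 0.182 for IL32 and 0.13 for RNA5-8SN1 in edgeR's test.

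The EDTA 2 library was set beside the levels that tell Addback from the other derivatives. Of 42 genes at least 4-fold above all 8 Vector and B4-4 libraries in both Addback NA libraries, all 42 were above those 8 libraries in EDTA 1 and 27 in EDTA 2. Of 16 genes at least 4-fold below them, 14 were below in EDTA 1 and 14 in EDTA 2. At the 4-fold used for picking, fewer stayed: 22 of the 42 genes in EDTA 1 and 9 in EDTA 2. Of the 16 genes it was 8 in EDTA 1 and 9 in EDTA 2. SRGN, the proteoglycan core serglycin, was at 28.6 and 25.8 CPM in NA, 29.2 CPM in EDTA 1 and 26.1 CPM in EDTA 2, against 0.852 to 2.27 CPM in the other derivatives. GRIP1, a scaffold protein, was at 0.783 and 1.03 CPM in NA, 0.819 CPM in EDTA 1 and 1.14 CPM in EDTA 2, against 9.84 to 19 CPM in the others. AKR1B1 ranged from 144 to 232 CPM and CCL2 from 0 to 0.575 CPM in the other derivatives, so that for these 2 genes EDTA 2 was nearer to the other derivatives than to Addback. The summed fibroblast markers were at 94.7 and 94.4 CPM in NA, 58.2 CPM in EDTA 1 and 150 CPM in EDTA 2, and 7 of 9 of them had a mean of at least 1 CPM. The members did not move together: POSTN fell from 10.8 and 9.81 CPM to 2.98 and 2.67 CPM and COL1A1 from 20 and 19.5 CPM to 12 and 11.2 CPM. The call of COL1A1 ended when any 1 Addback library was left out, and that of POSTN ended in none of these fits. FAP, not called, was at 16.8 and 17.9 CPM in NA, 14.1 CPM in EDTA 1 and 66 CPM in EDTA 2, and DCN, not called, at 19, 19.3, 17.4 and 51.9 CPM in the same order. The summed leukocyte markers were at 63.8 and 55.9 CPM in NA, 44.6 CPM in EDTA 1 and 20 CPM in EDTA 2, and 3 of 8 of them were at 0 in all 4 libraries. Of the 8 endothelial markers only PECAM1 reached a mean of 1 CPM. The part of these markers in the results was not tested.

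**Figure D2:**
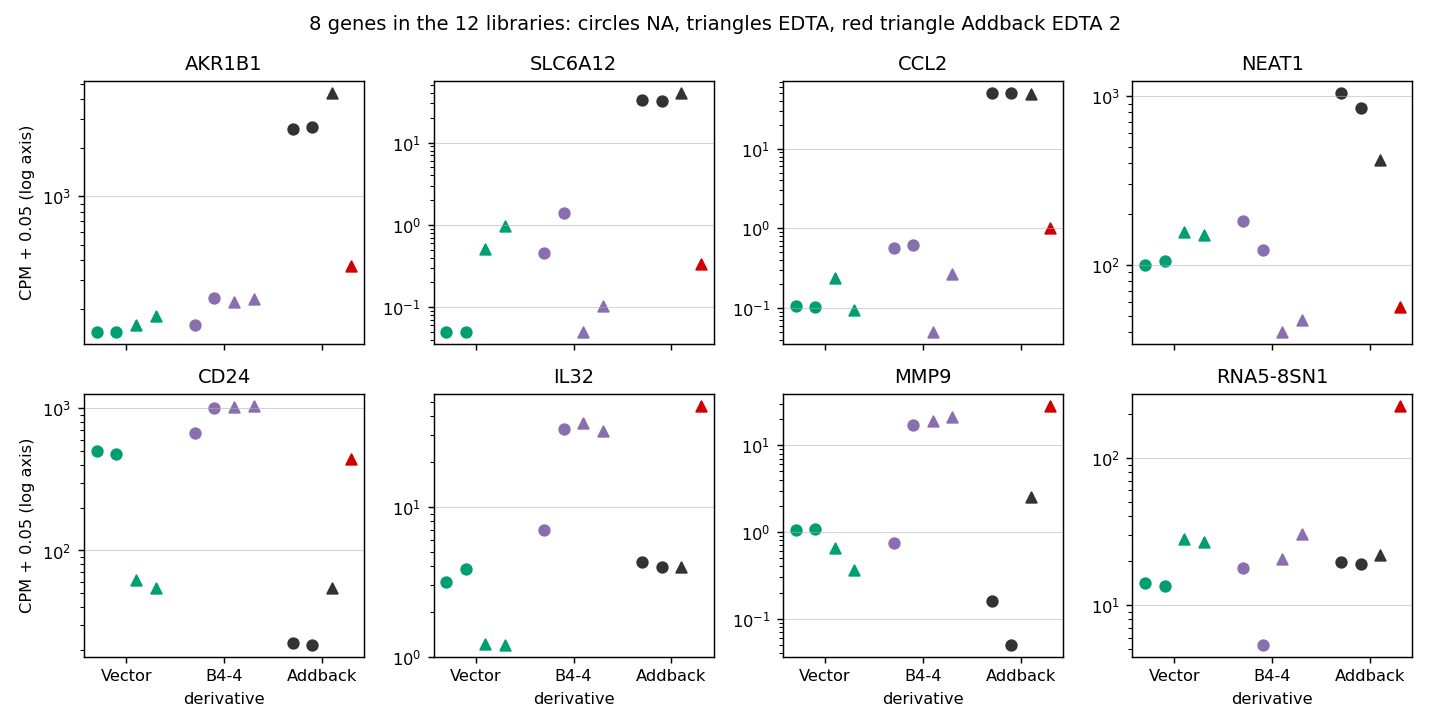
CPM plus 0.05 on log axes for 8 genes, chosen after their values were seen, in all 12 libraries, by derivative; circles are NA, triangles are EDTA and the red triangle is Addback EDTA 2. In AKR1B1, SLC6A12, CCL2 and NEAT1 the red triangle lies below the other Addback libraries, and in CD24, IL32, MMP9 and RNA5-8SN1 above them.

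In all, 2666 of 15749 genes (16.9%) were called in EDTA against NA in Addback, 1361 higher (8.64%) and 1305 lower (8.29%). Large changes were mostly falls: of the 827 genes changed by at least 2-fold, 612 were lower with EDTA and 215 higher. For every one of the 2666 genes both EDTA libraries lay on the same side of both NA libraries, which held for 9722 (61.7%) of all genes tested. The number called moved with single libraries. It was 615 without NA 1, 1082 without NA 2, 3170 without EDTA 1 and 1128 without EDTA 2. It also rose to 4319 and 4272 when B4-4 NA 1 or B4-4 NA 2, which enter only the estimate of spread, was left out. Of the 2666 genes, 880 kept their call without EDTA 1 and without EDTA 2, and 553 (227 higher, 326 lower) kept it without any 1 of the 4 Addback libraries.

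Among genes averaging 5 CPM or more over the 4 Addback libraries, the 4 largest rises were in MUC16, S100P, SPRR1B and S100A8. All 4 were under 5 CPM in both NA libraries and passed this cut only through their EDTA levels. The same held for DKK1, DMBT1 and SCNN1G among the rises given further on. MUC16 (ENSG00000181143, GRCh38 chr19:8848844-8981342), a membrane mucin known as CA125, had 3 and 1 counts in NA and 101 and 586 in EDTA, that is 0.168 and 0.0542 CPM against 5.91 and 33.3 CPM. The ratio of its summed counts was 180 (exact 95% interval 69.9 to 662, counting error only), with adjusted p = 0.0118 in edgeR's test. Its call ended without NA 1 or NA 2, and its adjusted p lay between 6.34e-10 and 0.116 over all alternative fits, which is how such ranges are given from here on. S100P, a calcium-binding S100 protein, stood at 0.168 and 0.379 CPM in NA and at 4.85 and 17.3 CPM in EDTA, a ratio of summed counts of 40.5 (21.8 to 85.2). SPRR1B (chr1:153031202-153032900), a precursor of the cornified envelope, stood at 0.28 and 0.488 CPM in NA and at 10 and 13.1 CPM in EDTA, a log2 rise of 4.88 (SE 0.45, adjusted p = 0.000123, edgeR). S100A8, a calcium-binding protein of inflamed epithelium, stood at 2.8 and 2.6 CPM in NA and at 42 and 20.9 CPM in EDTA. In these 4 genes both EDTA libraries lay far above both NA libraries, with EDTA 2 the higher in MUC16 and S100P and EDTA 1 in S100A8.

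The other 8 of the 12 largest rises included ANGPTL4, a secreted inhibitor of lipoprotein lipase whose exons overlap the antisense gene RAB11B-AS1 and which stood at 16.7 and 31.2 CPM in NA and at 173 and 221 CPM in EDTA (log2 3.04, SE 0.34, adjusted p = 0.000919, edgeR). AREG, the EGFR ligand amphiregulin, stood at 19.9 and 25.8 CPM in NA and at 125 and 150 CPM in EDTA (log2 2.59, SE 0.38). OSBP2, an oxysterol-binding protein, stood at 13.9 and 11.5 CPM in NA and at 103 and 84.4 CPM in EDTA. DMBT1, a secreted scavenger receptor, had the closest EDTA libraries of the 12 genes, at 13.4 and 14.2 CPM against 2.52 and 2.11 CPM in NA (log2 2.57, SE 0.18, adjusted p = 1.47e-05, edgeR). BCYRN1, a small RNA transcribed from a repeat-derived gene, stood at 5.76 and 5.91 CPM in NA and at 27 and 31.2 CPM in EDTA. For CD24, DKK1 and SCNN1G the call ended in 10 of the 12 fits that left out 1 library. CD24, a surface glycoprotein, stood at 22.3 and 21.6 CPM in NA, 54 CPM in EDTA 1 and 440 CPM in EDTA 2, and its adjusted p of 0.044 ranged from 1.3e-06 to 0.28. DKK1, a secreted Wnt inhibitor, stood at 2.52 and 2.44 CPM in NA, 5.26 CPM in EDTA 1 and 28.7 CPM in EDTA 2, with an adjusted p of 0.0333 that ranged from 5.37e-06 to 0.225. SCNN1G, a subunit of the epithelial sodium channel, stood at 2.85 and 3.85 CPM in NA and at 15.8 and 20.9 CPM in EDTA, with an adjusted p of 0.0335 that ranged from 6.02e-07 to 0.2.

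The 12 largest falls held receptors and chemokines. CMKLR1 (ENSG00000174600, GRCh38 chr12:108288044-108339341), the receptor of chemerin, stood at 16.4 and 17.3 CPM in NA and at 2.87 and 0.682 CPM in EDTA (log2 -3.25, SE 0.45, adjusted p = 0.00112, edgeR). S1PR1, a receptor of sphingosine 1-phosphate, stood at 30.2 and 25.7 CPM in NA and at 6.78 and 1.31 CPM in EDTA, and lost its call without NA 1 (adjusted p 5.81e-05 to 0.145). PTGER4, a receptor of prostaglandin E2, stood at 29.1 and 22.5 CPM in NA and at 5.32 and 2.73 CPM in EDTA (log2 -2.68, SE 0.33). The chemokines CXCL10 and CXCL11, which act through CXCR3, both fell. CXCL10 stood at 15.4 and 14.6 CPM in NA and at 3.57 and 0.569 CPM in EDTA, and CXCL11 at 11.3 and 7.53 CPM in NA and at 2.51 and 0.398 CPM in EDTA. The call of CXCL11 ended without NA 1 (adjusted p 3.35e-12 to 0.108), and that of CXCL10 in a fit of the 4 Addback libraries alone (adjusted p = 0.11, edgeR). In all 5 genes EDTA 2 was the lowest library.

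The other large falls began with ID2, an inhibitor of basic helix-loop-helix factors that stood at 25.1 and 28.4 CPM in NA and at 4.39 and 1.65 CPM in EDTA. Its call (adjusted p = 0.0269, edgeR) ended in 7 of the 12 fits, without Vector NA 1, Vector NA 2, B4-4 EDTA 1, B4-4 EDTA 2, NA 1, NA 2 or EDTA 2, with adjusted p from 6.73e-05 to 0.148. OSGIN1, a target of NRF2, stood at 31.7 and 23 CPM in NA and at 4.5 and 2.56 CPM in EDTA (log2 -2.95, SE 0.3, adjusted p = 0.000108, edgeR). ZNF750, a zinc finger factor of epidermal differentiation, stood at 20.4 and 11.2 CPM in NA and at 2.92 and 1.25 CPM in EDTA, and its call ended without NA 1 or EDTA 2 (adjusted p 9.75e-08 to 0.0671). ZNF608 stood at 14.1 and 13.2 CPM in NA and at 1.64 and 2.39 CPM in EDTA. DENND3, an exchange factor for Rab proteins, stood at 96.8 and 68.8 CPM in NA and at 15 and 10.1 CPM in EDTA, and both this gene and ZNF608 had an adjusted p of 2.16e-05. MFNG, a fringe enzyme that modifies Notch receptors, stood at 19 and 12 CPM in NA and at 3.1 and 2.1 CPM in EDTA, and ANKRD33B at 35 and 30.7 CPM in NA and at 4.74 and 3.53 CPM in EDTA.

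**Figure D3:**
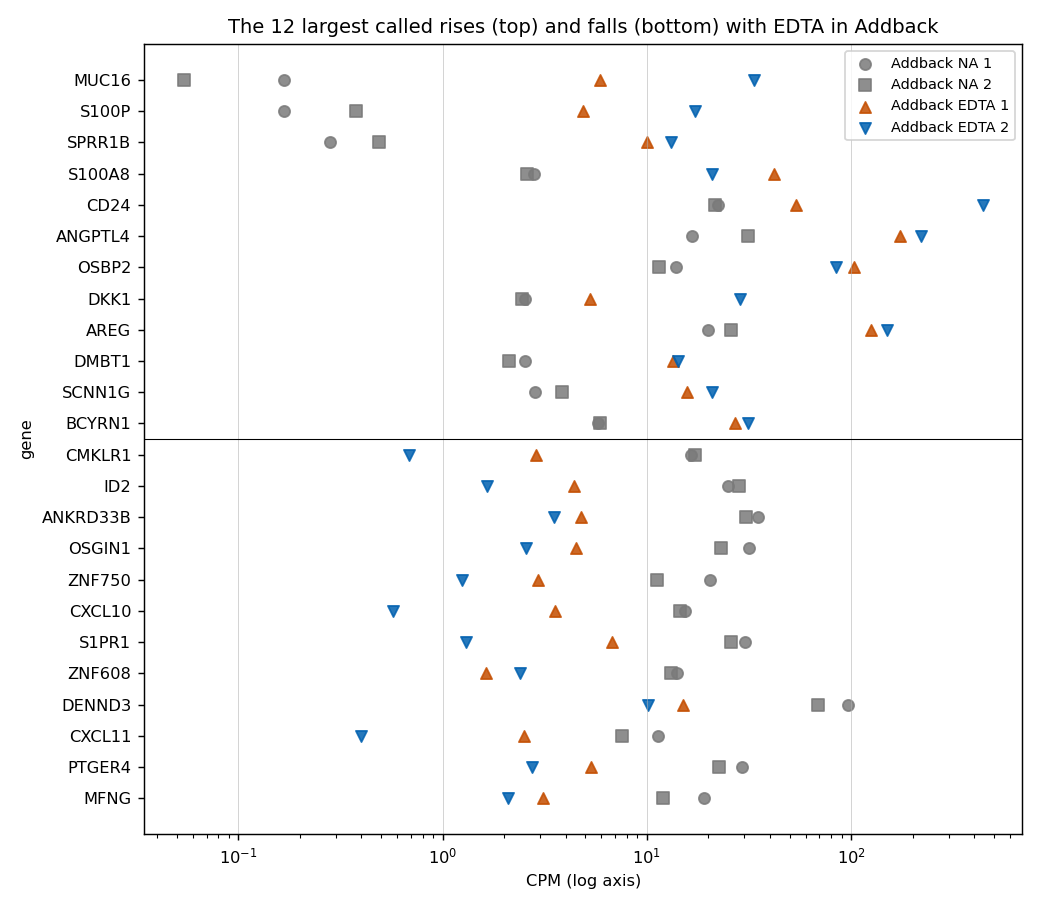
CPM on a log axis of the 12 largest called rises and the 12 largest called falls among genes of at least 5 CPM, with 1 point for each Addback library. Both EDTA points lie on the same side of both NA points in all 24 genes, and the EDTA points are widely separated in CD24, MUC16 and DKK1 among the rises and in CXCL11, CXCL10, S1PR1 and CMKLR1 among the falls.

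Gene lists were described by how many members were called and by the median log2 fold change, which over all genes tested was 0.01. Over all genes tested 8.64% rose and 8.29% fell, and the counts of each list are to be read beside these shares. Of 29 genes of squamous differentiation 22 were tested, and 12 rose and 0 fell. Several of them, S100A7 and SPRR1B included, passed the filter on low counts only through libraries other than Addback NA. Such genes could hardly be seen to fall, so that the count of rises in this list is a description. KRT16, a keratin of stressed epidermis, stood at 19.5 and 17.7 CPM in NA and at 60.6 and 81.5 CPM in EDTA (log2 1.93, SE 0.14, adjusted p = 2.16e-05, edgeR). KRT6A, its usual partner among keratins, stood at 1050 and 982 CPM in NA and at 1780 and 1860 CPM in EDTA (log2 0.84, SE 0.1), and KRT6 family members may share reads. TGM1, a transglutaminase that cross-links the cornified envelope, stood at 39.4 and 37.4 CPM in NA and at 73 and 79.2 CPM in EDTA. S100A7, psoriasin, had 0 counts in both NA libraries and 21 and 102 in EDTA, which was 42.9-fold a floor of 3 counts over the NA group. The exact 95% lower limit of its ratio was 34.4, and its adjusted p of 0.00363 ranged from 7.19e-21 to 0.0887 (edgeR). IVL, the envelope protein involucrin, stood at 0.336 and 0 CPM in NA and at 0.234 and 0.739 CPM in EDTA and was not called. The number that rose was 15 without EDTA 1, 8 without EDTA 2, 8 without NA 1 and 7 without NA 2.

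The tested kallikrein-related peptidases, proteases of the skin surface, were near the floor in Addback NA. Those that rose were above it in both EDTA libraries. Of 10 genes 6 were tested, and 4 of these rose. With at most 3 counts in either NA library, these 6 passed the filter on low counts only through other groups, so that their count of rises is a description. KLK7 had 1 and 1 counts in NA and 56 and 263 in EDTA, a ratio of 167 (exact 95% interval 45.9 to 1390). KLK5 had 3 and 1 counts in NA and 48 and 154 in EDTA, a ratio of 52.9 (20.3 to 196). KLK10 had 2 and 0 counts in NA and 18 and 92 in EDTA, a ratio of 57.6 (15.6 to 482). KLK8 had 0 and 0 against 6 and 17, which was 8.03-fold the same floor, with an exact 95% lower limit of 6.02. KLK6 had 0 and 0 counts in NA and 2 and 10 in EDTA, KLK14 had 1 and 0 against 1 and 15, and neither was called. In each of these 6 genes EDTA 2 was above EDTA 1. Without NA 1 or without NA 2 only 1 of the 6 rose, without EDTA 2 it was 2, and without EDTA 1 it was all 6.

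Of 13 tested genes of hemidesmosomes and laminin-binding integrins, 2 rose and 1 fell, with a median of 0.24. PLEC, plectin, which links hemidesmosomes to keratin filaments, stood at 835 and 804 CPM in NA and at 1390 and 1470 CPM in EDTA (log2 0.8, SE 0.11, adjusted p = 0.000643, edgeR). ITGB4 had a log2 difference of 0.38 (SE 0.28, adjusted p = 0.401) and ITGA6, the alpha 6 chain, one of -0.02 (SE 0.13, adjusted p = 0.952). When B4-4 NA 1 or B4-4 NA 2 was left out of the fit, ITGB4 passed the test, with adjusted p of 0.00641 and 0.00689 (edgeR). ITGA6 was at 914 and 903 CPM in NA, 981 CPM in EDTA 1 and 816 CPM in EDTA 2, so that its groups overlapped. COL17A1, a transmembrane collagen of hemidesmosomes, was at 509 and 488 CPM in NA and at 605 and 568 CPM in EDTA and was not called (adjusted p = 0.0655, edgeR). The call of ITGA3 ended when any Addback library was left out, and that of FERMT1, kindlin-1, in 9 of the 12 fits. The counts for the list were 1 higher and 0 lower without EDTA 1, NA 1 or NA 2, and 2 and 0 without EDTA 2.

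Of 17 tested genes of other integrins and focal adhesions, 0 rose and 6 fell, with a median of -0.27. ITGA5, the alpha chain of the fibronectin receptor, whose exons overlap GPR84-AS1, stood at 542 and 511 CPM in NA and at 224 and 237 CPM in EDTA (log2 -1.19, SE 0.12, adjusted p = 0.000103, edgeR). ITGA10, a collagen-binding chain, stood at 53.1 and 54.1 CPM in NA and at 17.2 and 12.1 CPM in EDTA (log2 -1.87, SE 0.18). ITGA2, another collagen-binding chain, stood at 271 and 232 CPM in NA and at 151 and 168 CPM in EDTA. ITGB8, the partner of which is the alpha V chain, stood at 220 and 167 CPM in NA and at 51.7 and 86.6 CPM in EDTA, and its call ended without NA 1 (adjusted p 2.13e-08 to 0.0734). FN1, fibronectin itself, was not called and split the EDTA libraries, with 595 and 580 CPM in NA, 191 CPM in EDTA 1 and 784 CPM in EDTA 2. The number that fell was 5 without EDTA 1, 7 without EDTA 2, 3 without NA 1 and 5 without NA 2.

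Of 13 tested tight junction genes 0 rose and 6 fell (median -0.21). TJP1, the scaffold ZO-1, stood at 318 and 275 CPM in NA and at 132 and 157 CPM in EDTA (log2 -1.04, SE 0.11, adjusted p = 0.000113, edgeR). MARVELD2, tricellulin, stood at 66.8 and 57.2 CPM in NA and at 31.8 and 34.9 CPM in EDTA. OCLN, occludin, stood at 84.8 and 66.2 CPM in NA and at 18.4 and 42 CPM in EDTA, and its call ended without NA 1 (adjusted p 5.98e-06 to 0.192). CLDN1 and CLDN4, claudins, were not called, and in both EDTA 2 was the highest Addback library, at 66.2 and 15.9 CPM. Of 12 genes of adherens junctions and nectins none was called by edgeR, and CDH1, E-cadherin, stood at 218 and 205 CPM in NA, 170 CPM in EDTA 1 and 269 CPM in EDTA 2. Of all genes 5025 passed an unadjusted p of 0.05, and of these 12 genes 2 rose without EDTA 1 and 1 without EDTA 2. Of 9 desmosome genes 3 fell, among them DSC3, desmocollin 3, from 619 and 534 CPM to 276 and 271 CPM (log2 -1.08, SE 0.11). For tight junction genes the number that fell was 5 without EDTA 1, 5 without EDTA 2, 3 without NA 1 and 4 without NA 2, and without EDTA 1 a further 3 rose. For desmosome genes it was 2, 2, 1 and 2 in the same order, with 1 that rose without EDTA 1.

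Of the signalling lists, BMP and ID genes had the lowest median. Of 9 tested 4 fell and 0 rose, with a median of -1.30. The ID proteins are targets of BMP receptors and hold basic helix-loop-helix factors inactive. ID1 stood at 71.4 and 97.8 CPM in NA and at 28.5 and 39.6 CPM in EDTA, and ID3 at 192 and 232 CPM in NA and at 55.8 and 112 CPM in EDTA. Both calls ended without NA 2 (adjusted p 2.43e-13 to 0.06 for ID1 and 2.5e-07 to 0.151 for ID3). BAMBI, a decoy receptor of this pathway, stood at 20.3 and 16.9 CPM in NA and at 9.3 and 4.89 CPM in EDTA (log2 -1.39, SE 0.23, adjusted p = 0.00235, edgeR). The number that fell was 4 without EDTA 1, 3 without EDTA 2, 3 without NA 1 and 1 without NA 2.

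Of 13 Notch genes 5 fell and 1 rose. JAG1, a Notch ligand, stood at 178 and 161 CPM in NA and at 69.3 and 67.5 CPM in EDTA (log2 -1.31, SE 0.12, adjusted p = 7.09e-05, edgeR). NOTCH1 stood at 183 and 174 CPM in NA and at 110 and 119 CPM in EDTA, and NOTCH3 at 19.2 and 16.3 CPM in NA and at 3.8 and 4.26 CPM in EDTA. Both receptors lost their call when any 1 Addback library was left out. The target gene HES1 stood at 47.2 and 57.9 CPM in NA and at 173 and 170 CPM in EDTA and was the member that rose (log2 1.70, adjusted p = 0.0459, edgeR), but its call ended in 10 of the 12 fits (adjusted p 6.19e-08 to 0.236). Without NA 1, NA 2 or EDTA 2 the list held 1 fall and 0 rises, and without EDTA 1 it held 4 falls and 0 rises.

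Of 12 genes of the EGFR list 2 rose, AREG and EPGN, and 2 fell. EPGN, epigen, another EGFR ligand, stood at 22.8 and 23.8 CPM in NA and at 52.9 and 70.6 CPM in EDTA (log2 1.4, SE 0.13, adjusted p = 7.09e-05, edgeR). The 2 rises were held in all 4 fits without an Addback library, and the 2 falls became 1 without EDTA 1 and 0 in the other 3. Of 15 ERK feedback genes 1 rose and 1 fell, no larger shares than over all genes tested (8.64% and 8.29%), and without NA 1 none was called. DUSP4, a phosphatase of nuclear MAP kinases, stood at 38.3 and 42.6 CPM in NA and at 141 and 149 CPM in EDTA, and DUSP5, another, at 62.7 and 68.3 CPM in NA and at 27.7 and 13.9 CPM in EDTA. The call of DUSP4 ended without NA 1 (adjusted p 9.86e-11 to 0.0717) and that of DUSP5 without NA 1, NA 2 or EDTA 2 (2.14e-06 to 0.0858).

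Immediate early genes, which are switched on within minutes by many stimuli, were low above all in EDTA 2. Of 16 tested 4 fell and 0 rose, and the median was -0.92, with medians of -0.60 for EDTA 1 and -1.57 for EDTA 2 over the 13 members of at least 5 CPM. EGR1 stood at 391 and 578 CPM in NA, 101 CPM in EDTA 1 and 24.3 CPM in EDTA 2 and was not called (adjusted p = 0.197, edgeR). FOSB stood at 65.5 and 79.2 CPM in NA, 172 CPM in EDTA 1 and 12.7 CPM in EDTA 2. JUN stood at 150 and 127 CPM in NA, 234 CPM in EDTA 1 and 46.6 CPM in EDTA 2. For FOSB and JUN the EDTA libraries thus lay on opposite sides of the NA libraries. BTG2, an antiproliferative gene, stood at 202 and 204 CPM in NA and at 127 and 93.4 CPM in EDTA (log2 -0.88, SE 0.13, adjusted p = 0.00129, edgeR). The number that fell was 6 without EDTA 1, 1 without EDTA 2, 1 without NA 1 and 2 without NA 2.

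Among 20 tested SRF and actin genes 4 fell and 0 rose (median -0.08). SRF, the serum response factor, stood at 188 and 150 CPM in NA and at 86.7 and 79 CPM in EDTA (log2 -1.03, SE 0.12, adjusted p = 0.000209, edgeR). FHL2, a LIM protein of actin filaments, stood at 110 and 102 CPM in NA and at 54.1 and 37.4 CPM in EDTA. Of 18 YAP and TAZ target genes 2 rose and 3 fell. AJUBA, a LIM protein of junctions, stood at 46.8 and 44.7 CPM in NA and at 81.3 and 84.7 CPM in EDTA (log2 0.86, SE 0.09), and AXL, a receptor kinase, at 135 and 126 CPM in NA and at 68.4 and 80.8 CPM in EDTA. CCN1, from 133 and 92.9 CPM to 43.6 and 19.4 CPM, and CCN2, both matricellular targets, fell but lost the call in 9 and 6 of the 12 fits (adjusted p 0.00314 to 0.201 and 0.00187 to 0.26). The SRF list held 3, 3, 2 and 3 falls without EDTA 1, EDTA 2, NA 1 and NA 2 in turn, with 3 rises without EDTA 1. For the YAP list the rises were 3, 1, 1 and 1 and the falls 3, 2, 1 and 1.

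Of 19 NF-kB and cytokine genes 5 fell and 1 rose (median 0.22). RELB, a subunit of NF-kB, stood at 45.7 and 49.5 CPM in NA and at 18.9 and 17.2 CPM in EDTA (log2 -1.40, SE 0.17, adjusted p = 0.000299, edgeR). LIF, a cytokine of the interleukin 6 family, stood at 25.5 and 25.8 CPM in NA and at 9 and 8.87 CPM in EDTA. NFKBIA, the inhibitor that NF-kB induces, was at 102 and 130 CPM in NA and at 352 and 345 CPM in EDTA and was not called, and CXCL2, a neutrophil chemokine, was at 3.69 and 3.09 CPM in NA and at 14.7 and 18.4 CPM in EDTA and was not called. Both passed the test when B4-4 NA 1 or B4-4 NA 2 was left out. Among 18 interferon-induced genes 3 fell and 1 rose, and IFIH1, a sensor of viral RNA, stood at 46.1 and 47 CPM in NA and at 29.8 and 26 CPM in EDTA (log2 -0.74, SE 0.11). Without EDTA 1, EDTA 2, NA 1 and NA 2 in turn, the falls were 4, 3, 3 and 4 for the NF-kB list and 5, 2, 1 and 2 for the interferon list, and the rises 2, 0, 0 and 0 for each.

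Of 9 tested genes of the aryl hydrocarbon receptor list 4 fell and 0 rose (median -0.85). CYP1B1, an oxidase induced by the receptor, whose exons overlap CYP1B1-AS1 and RMDN2, stood at 450 and 466 CPM in NA and at 141 and 68.5 CPM in EDTA (log2 -2.13, SE 0.29, adjusted p = 0.00242, edgeR), a call that ended in a fit of the 4 Addback libraries alone (adjusted p = 0.0877). AHR, the receptor, stood at 30 and 29.6 CPM in NA and at 17.1 and 16.1 CPM in EDTA, and its call ended without NA 1, NA 2 or EDTA 2 (adjusted p 2e-06 to 0.0924). CYP1A1 was at 121 and 111 CPM in NA, 46.7 CPM in EDTA 1 and 9.61 CPM in EDTA 2 and was not called (adjusted p = 0.0636, edgeR), though it was called when either EDTA library was left out. The falls were 5 without EDTA 1, 2 without EDTA 2, 1 without NA 1 and 1 without NA 2, with 1 rise without EDTA 2.

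Antioxidant and amino acid genes were among the lists with the most falls. Of 22 NRF2 targets 8 fell and 2 rose (median -0.16). GCLC, the catalytic subunit of the enzyme that limits glutathione synthesis, whose exons overlap GCLC-AS1, stood at 296 and 257 CPM in NA and at 96.1 and 106 CPM in EDTA (log2 -1.45, SE 0.12, adjusted p = 3.54e-05, edgeR). SLC7A11, the cystine importer, whose exons overlap SLC7A11-AS1, stood at 170 and 132 CPM in NA and at 64.3 and 62 CPM in EDTA, and TXNRD1, a thioredoxin reductase, at 578 and 453 CPM in NA and at 153 and 258 CPM in EDTA (adjusted p = 0.00174, from 1.82e-25 to 0.078). ABCC3, an export pump, stood at 513 and 497 CPM in NA and at 281 and 285 CPM in EDTA. TXN, thioredoxin, and AKR1C2, an aldo-keto reductase whose reads may be shared with its paralogs, rose. The call of TXN ended without NA 1, NA 2 or EDTA 2 (adjusted p 0.00262 to 0.175). The falls were 9 without EDTA 1, 6 without EDTA 2, 5 without NA 1 and 7 without NA 2, and the rises 2, 1, 1 and 1.

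Of 30 ATF4 and amino acid genes 9 fell and 4 rose (median -0.09). PHGDH, which starts serine synthesis, stood at 177 and 172 CPM in NA and at 67.9 and 52.1 CPM in EDTA (log2 -1.54, SE 0.15, adjusted p = 7.98e-05, edgeR), and PSAT1, the next enzyme, at 283 and 273 CPM in NA and at 175 and 161 CPM in EDTA. ASNS, asparagine synthetase, stood at 115 and 112 CPM in NA and at 50.5 and 50.4 CPM in EDTA, and its call ended when any 1 Addback library was left out (adjusted p 2.06e-07 to 0.0939). CEBPB, a transcription factor, stood at 38.4 and 43.7 CPM in NA and at 95.5 and 88 CPM in EDTA (log2 1.16, SE 0.16). The falls were 6 without EDTA 1, 6 without EDTA 2, 3 without NA 1 and 5 without NA 2, and the rises 4, 2, 1 and 1.

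Of 18 iron and ferroptosis genes 6 fell and 1 rose (median -0.32). TFRC, the transferrin receptor, stood at 703 and 688 CPM in NA and at 427 and 435 CPM in EDTA, and its call ended without NA 1 (adjusted p 1.3e-07 to 0.061). SLC39A14, a zinc and iron importer, stood at 247 and 256 CPM in NA and at 138 and 180 CPM in EDTA. ACSL4, which loads membranes with polyunsaturated fatty acids, was the member that rose, from 218 and 219 CPM to 463 and 438 CPM (log2 1.04, SE 0.16, adjusted p = 0.00131, edgeR). PROM2, prominin-2, was at 5.15 and 4.23 CPM in NA and at 4.56 and 4.21 CPM in EDTA and was not called (log2 -0.10, SE 0.17). Of 20 genes of the unfolded protein response 5 fell and 0 rose (median -0.05), among them XBP1, a transcription factor, from 234 and 227 CPM to 148 and 122 CPM (log2 -0.77, SE 0.1), and DNAJB9, whose exons overlap PNPLA8 and THAP5, from 42.1 and 45.2 CPM to 22.4 and 17.9 CPM. The iron falls were 7, 3, 1 and 3 without EDTA 1, EDTA 2, NA 1 and NA 2 in turn, and the unfolded protein falls 5, 4, 3 and 4.

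Heat shock genes moved in both directions: of 20 tested, 11 rose and 4 fell (median 0.49). Those that rose included HSP90AA1, an HSP90 chaperone, and partners of HSP70. HSP90AA1, whose exons overlap WDR20, stood at 2060 and 2280 CPM in NA and at 3280 and 4220 CPM in EDTA (log2 0.79, SE 0.11, adjusted p = 0.000731, edgeR). HSPH1, a nucleotide exchange factor for HSP70, stood at 284 and 282 CPM in NA and at 438 and 441 CPM in EDTA, and STIP1, which joins HSP70 to HSP90, at 251 and 253 CPM in NA and at 345 and 382 CPM in EDTA. Members that fell included the stress-induced pair HSPA1A and HSPA1B, which may share reads, and the HSP70 partner BAG3, which stood at 260 and 262 CPM in NA and at 171 and 164 CPM in EDTA. The call of HSPA1A (480 and 427 CPM in NA, 333 and 359 CPM in EDTA) ended without NA 1 or EDTA 1 and that of HSPA1B without NA 1, with adjusted p up to 0.189 and 0.0858. The rises were 13 without EDTA 1, 6 without EDTA 2, 5 without NA 1 and 6 without NA 2, and the falls 3, 4, 1 and 4. The motif GAANNTTC, a form of the heat shock element searched on both strands, was in the 250 bases before the start of 10 of the 18 genes with a promoter entry, against 5.78% of 35116 promoters. Of the 11 genes that rose, 6 held a match, and of the 4 that fell, 2. A gene was counted if any of its promoter entries matched, whereas the share over all promoters counts each entry singly, so the shares are not alike.

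Of 16 zinc genes 2 fell and 1 rose, beside 8.29% and 8.64% over all genes tested. MT1E, a metallothionein, stood at 381 and 385 CPM in NA and at 140 and 162 CPM in EDTA (log2 -1.34, SE 0.18, adjusted p = 0.000764, edgeR), and MT2A, the most abundant metallothionein here, was at 3060 and 2960 CPM in NA and at 1540 and 1440 CPM in EDTA and was not called (adjusted p = 0.112). MT2A passed the test without B4-4 NA 1 or B4-4 NA 2, and under DESeq2 (adjusted p = 0.0446). Metallothionein genes may share reads. Of 19 calcium-handling genes 2 fell, a share near the 8.29% of all genes tested. ATP2B4, a pump that exports calcium, stood at 192 and 172 CPM in NA and at 84.7 and 94.8 CPM in EDTA (log2 -1.02, SE 0.1, adjusted p = 8.52e-05, edgeR), and ATP2B1, another, at 171 and 151 CPM in NA and at 118 and 125 CPM in EDTA. The call of ATP2B1 ended in 8 of the 12 fits (adjusted p 0.004 to 0.266). The zinc falls were 3, 2, 2 and 3 and the calcium falls 4, 1, 1 and 1 without EDTA 1, EDTA 2, NA 1 and NA 2 in turn.

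Of 24 genes of G2/M and mitosis 16 rose and 0 fell (median 0.49), and of 25 genes of G1/S and replication 11 rose and 0 fell (median 0.33). CDC20, an activator of the anaphase-promoting complex, stood at 132 and 130 CPM in NA and at 244 and 232 CPM in EDTA (log2 0.86, SE 0.11, adjusted p = 0.000525, edgeR). PLK1, a mitotic kinase, stood at 65.5 and 63.8 CPM in NA and at 101 and 106 CPM in EDTA, and TOP2A, a topoisomerase of mitotic chromosomes, at 331 and 350 CPM in NA and at 508 and 574 CPM in EDTA. CCNB1, cyclin B1, stood at 188 and 194 CPM in NA and at 291 and 306 CPM in EDTA. RRM2, a subunit of ribonucleotide reductase, stood at 161 and 171 CPM in NA and at 299 and 389 CPM in EDTA (log2 1.05, SE 0.14), and CCNE1, cyclin E1, at 7.72 and 7.75 CPM in NA and at 14.2 and 16.9 CPM in EDTA. MKI67, the proliferation marker Ki-67, was at 421 and 429 CPM in NA and at 497 and 580 CPM in EDTA and was not called. In the 6 named genes that rose, both EDTA libraries lay above both NA libraries. The G2/M rises were 17 without EDTA 1, 10 without EDTA 2, 6 without NA 1 and 11 without NA 2, and those of G1/S 12, 5, 3 and 3, with 0 falls in each.

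Many G2/M genes are known to carry in their promoters a CHR element, TTTGAA, that recruits the DREAM complex, and CCAAT boxes bound by NF-Y. Both were searched on both strands in the 250 bases before the RefSeq start (GRCh38.p14) of the 19 G2/M genes with a promoter entry. TTTGAA was in 11 of the 19, against 13.3% of 35116 promoters, and CCAAT in 17 of the 19, against 32%. A gene was counted if any of its promoter entries held the motif, whereas the shares over all promoters count each entry singly. Genes with several entries thus had more chances of a match. Of the 11 genes that rose and have an entry, 7 held TTTGAA and 10 held CCAAT. A match describes these letters only. The 3 promoters below are shown because each gene rose and holds both motifs, in capitals on either strand and with no overlap between matches: CDC20 (chr1:43358731-43358980, plus strand), PLK1 (chr16:23678639-23678888, plus strand) and TOP2A (chr17:40417897-40418146, minus strand).
CDC20: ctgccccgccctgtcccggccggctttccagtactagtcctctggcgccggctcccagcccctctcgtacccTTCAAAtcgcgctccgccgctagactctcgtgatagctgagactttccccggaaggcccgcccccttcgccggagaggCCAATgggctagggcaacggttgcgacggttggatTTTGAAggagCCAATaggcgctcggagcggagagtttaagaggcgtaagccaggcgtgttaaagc
PLK1: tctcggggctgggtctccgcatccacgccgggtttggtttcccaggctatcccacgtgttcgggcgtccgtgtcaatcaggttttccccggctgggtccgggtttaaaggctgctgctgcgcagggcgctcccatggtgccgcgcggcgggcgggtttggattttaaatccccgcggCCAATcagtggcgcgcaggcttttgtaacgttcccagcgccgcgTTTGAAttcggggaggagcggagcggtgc
TOP2A: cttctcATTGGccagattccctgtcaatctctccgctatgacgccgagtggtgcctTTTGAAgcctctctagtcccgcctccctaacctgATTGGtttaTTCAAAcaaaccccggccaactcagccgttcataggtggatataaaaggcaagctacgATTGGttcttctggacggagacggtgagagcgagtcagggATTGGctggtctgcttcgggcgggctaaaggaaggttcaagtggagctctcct

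Among these matches, TTTGAA lay 65 and 178 bases before the start of CDC20, 29 before that of PLK1 and 151 and 194 before that of TOP2A, counted from the first base of each match. CCAAT lay 55 and 100 bases before the start of CDC20 and 73 before that of PLK1, and TOP2A held 4 matches.

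Of 18 genes of cholesterol synthesis and uptake 6 rose and 2 fell (median 0.28), with medians of 0.16 for EDTA 1 and 0.41 for EDTA 2. FDPS, farnesyl diphosphate synthase, whose exons overlap RUSC1-AS1, stood at 244 and 253 CPM in NA, 330 CPM in EDTA 1 and 552 CPM in EDTA 2, and its call ended without NA 1 or NA 2 (adjusted p 3.32e-11 to 0.133). Of 19 fatty acid genes 5 rose and 1 fell, and FASN, fatty acid synthase, stood at 1250 and 1270 CPM in NA and at 1660 and 2190 CPM in EDTA. The call of FASN ended without NA 1, NA 2 or EDTA 2 (adjusted p 3.37e-07 to 0.114). Without EDTA 1, EDTA 2, NA 1 and NA 2 in turn, the cholesterol rises were 8, 2, 1 and 1 and the fatty acid rises 6, 1, 1 and 1.

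Proteasome and respiratory genes rose by small amounts where they were called. Of 20 proteasome genes 8 rose and 0 fell (median 0.30). PSMD1, a subunit of the regulatory particle, stood at 194 and 204 CPM in NA and at 257 and 282 CPM in EDTA (log2 0.44, SE 0.09), and its call ended without NA 1 (adjusted p 0.000249 to 0.0859). Of 25 respiratory chain genes 5 rose and 0 fell (median 0.17). Of 30 cytosolic ribosomal protein genes none was called by edgeR, with a median of -0.01. Of 25 glycolysis and hypoxia genes 2 rose and 0 fell, and the share that rose was near the 8.64% over all genes tested. Without EDTA 1, EDTA 2, NA 1 and NA 2 in turn, the proteasome rises were 8, 2, 0 and 4 and the respiratory rises 5, 0, 0 and 0. For ribosomal protein genes 1 fell without EDTA 1, and the glycolysis rises were 1, 0, 0 and 0.

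Of 18 BCL2 family and anoikis genes 1 rose and 2 fell, beside 8.64% and 8.29% over all genes tested. BAK1, a pore-forming effector of apoptosis, stood at 32.6 and 33.9 CPM in NA and at 60.6 and 68.3 CPM in EDTA (log2 0.95, SE 0.19), and its call ended without NA 1 or EDTA 2 (adjusted p 1.51e-11 to 0.0816, edgeR). CFLAR, an inhibitor of caspase 8 whose exons overlap CFLAR-AS1, stood at 103 and 88.9 CPM in NA and at 55.7 and 64.5 CPM in EDTA (log2 -0.67, SE 0.11, adjusted p = 0.0016, edgeR). BCL2L11, the anoikis protein BIM, was at 65 and 73.5 CPM in NA and at 50.3 and 30.4 CPM in EDTA and was not called (adjusted p = 0.0771), though it was without EDTA 1, B4-4 NA 1 or B4-4 NA 2. BMF, another anoikis protein, was at 2.46 and 2.22 CPM in NA and at 1.58 and 0.682 CPM in EDTA and was not called. Of 20 p53 targets 2 rose and 2 fell, shares near the 8.64% and 8.29% over all genes tested. The p53 counts were 0 rises and 0 falls without NA 1 or NA 2, 1 and 0 without EDTA 2 and 2 and 3 without EDTA 1, and those of the BCL2 list 0 and 1, 1 and 1, 0 and 1, and 1 and 4 for NA 1, NA 2, EDTA 2 and EDTA 1.

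Genes of the plasminogen list and of the mesenchymal list fell where they were called. Of 16 genes of tissue factor and plasminogen 3 fell and 0 rose. PLAT, tissue plasminogen activator, stood at 174 and 172 CPM in NA and at 102 and 63.2 CPM in EDTA (log2 -1.06, SE 0.17, adjusted p = 0.00168, edgeR). In a fit of the 4 Addback libraries alone the adjusted p was 0.0706 for PLAT and 0.0549 for PLAUR. PLAUR, the urokinase receptor, stood at 105 and 79.8 CPM in NA and at 34.1 and 52.9 CPM in EDTA, and PLAU, urokinase, whose exons overlap C10orf55, at 405 and 427 CPM in NA and at 160 and 85 CPM in EDTA. The call of PLAU ended without NA 1 or NA 2 (adjusted p 3.16e-05 to 0.0826). Of 21 genes of TGF-beta and mesenchymal transition 4 fell and 0 rose (median -0.26), among them THBS1, thrombospondin 1, whose exons overlap FSIP1, from 966 and 628 CPM to 342 and 380 CPM (log2 -1.14, SE 0.17). VIM, vimentin, was at 506 and 532 CPM in NA and at 428 and 474 CPM in EDTA and was not called. MMP9, another member of the mesenchymal list, had 2 and 0 counts in NA and 43 and 496 in EDTA and was not called. Without EDTA 1, EDTA 2, NA 1 and NA 2 in turn, the plasminogen falls were 4, 3, 2 and 2 and those of the mesenchymal list 4, 4, 2 and 2, with 2 rises in the mesenchymal list without EDTA 1.

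**Figure D4:**
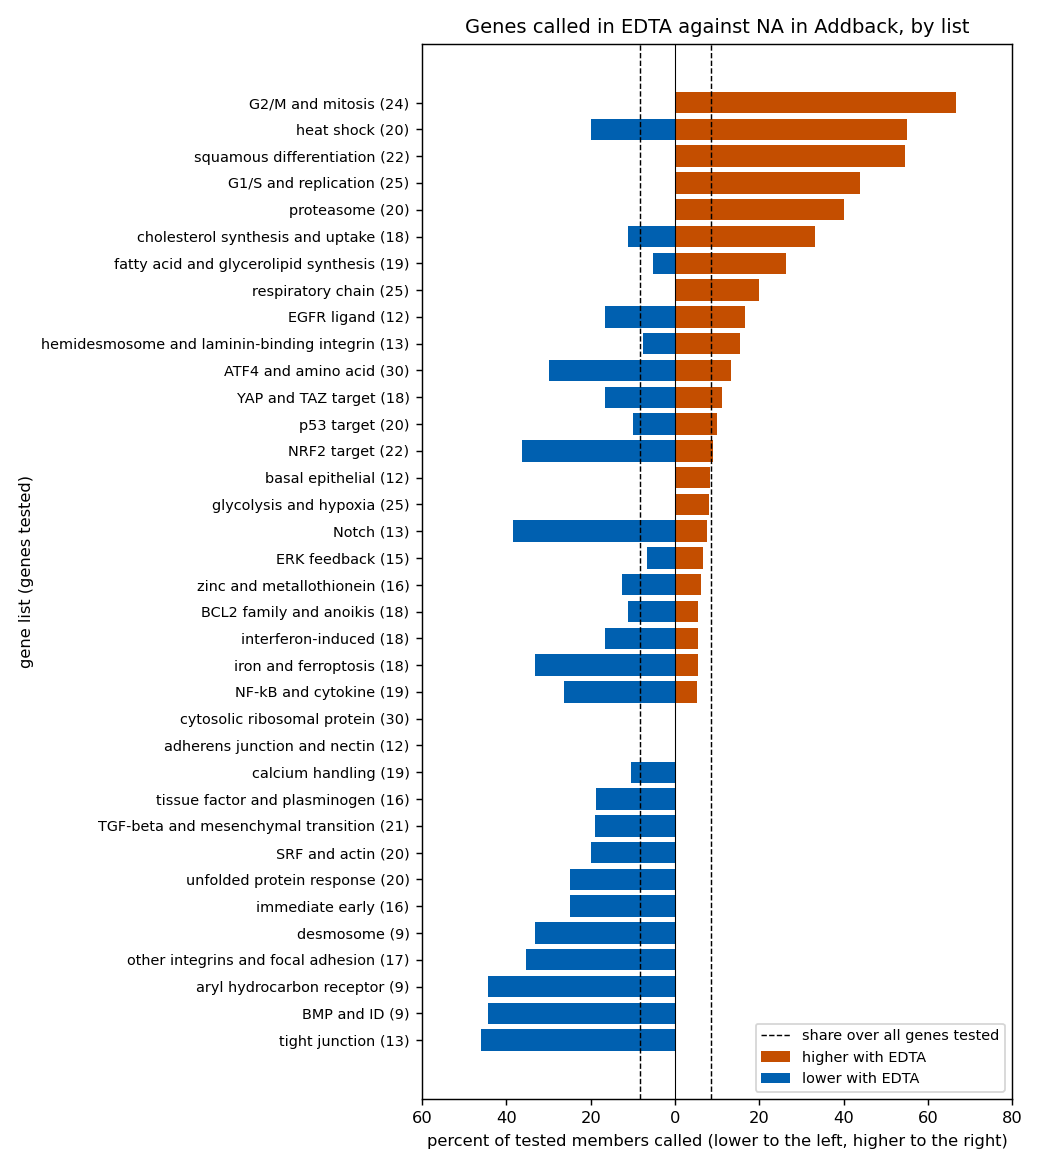
Percent of the tested members of each gene list called higher (orange, right) and lower (blue, left) in EDTA against NA in Addback, with the number tested in brackets; dashed lines are the shares over all genes tested, 8.64% higher and 8.29% lower. Lists with fewer than 8 tested genes are left out. G2/M, heat shock and squamous genes reach farthest to the right and tight junction, BMP and aryl hydrocarbon receptor genes farthest to the left. Several squamous genes were near the floor in Addback NA and could hardly be seen to fall.

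The EDTA effect in Addback was then tested against that in the other derivatives, as a difference of log2 fold changes. It differed from the effect in Vector for 3818 genes (24.2%), 2113 in which the effect was higher in Addback (13.4%) and 1705 in which it was lower (10.8%). It differed from the effect in B4-4 for 1383 genes (8.78%), 664 higher (4.22%) and 719 lower (4.57%). The first count was 2138 to 2449 without Vector NA 1, Vector NA 2, Vector EDTA 1, NA 1 or NA 2. The second was 403 without NA 1 and 2994 without B4-4 NA 1, and it also moved by over 1.5 times without B4-4 NA 2 (2416), NA 2 (672), B4-4 EDTA 1 (456), B4-4 EDTA 2 (534), Vector NA 1 (849) or Vector NA 2 (846).

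All 12 of the largest rises passed the test against Vector and 8 passed it against B4-4. These genes were picked by their EDTA effect in Addback, which is part of both differences, so the picking favoured a pass. Against Vector the calls of DKK1 (adjusted p = 0.0393, from 6.24e-06 to 0.137, edgeR) and SCNN1G (0.0482, from 1.49e-06 to 0.157) ended in 10 of the 12 fits that left out 1 library. That of CD24 ended without Vector EDTA 1, NA 1 or NA 2 (up to 0.0671). Against B4-4 the calls of OSBP2 and SCNN1G ended in 10 of the 12 fits (adjusted p up to 0.152 and 0.14), that of MUC16 in 6 (up to 0.116) and that of BCYRN1 in 4 (up to 0.0957). AREG had a difference of 4.95 (SE 0.52, adjusted p = 0.000511, edgeR) against Vector and of 0.46 (SE 0.5, adjusted p = 0.609) against B4-4. The Vector libraries of AREG were at 409 and 411 CPM in NA and lower, at 80.3 and 79 CPM, in EDTA. SPRR1B had differences of 7.09 (SE 0.51) and 5.13 (SE 0.53). In SPRR1B the Vector libraries stood at 93.6 and 95 CPM in NA and at 20.8 and 20.1 CPM in EDTA and the B4-4 libraries between 29.3 and 57.1 CPM, so that the Addback EDTA libraries, at 10 and 13.1 CPM, were still the lowest among EDTA libraries. PROM2, level in Addback, had differences of 3.04 (SE 0.23, adjusted p = 6.18e-06) against Vector and 1.27 (SE 0.23, adjusted p = 0.00564) against B4-4, beside Vector levels of 40.4 and 40.8 CPM in NA, against 4.73 and 4.48 CPM in EDTA. ITGA6 differed from B4-4 (-0.81, SE 0.19, adjusted p = 0.0199), where it stood at 672 and 905 CPM in NA and at 1380 and 1350 CPM in EDTA, and this call ended without B4-4 EDTA 1, B4-4 EDTA 2, NA 1 or NA 2 (adjusted p 1.86e-05 to 0.0851).

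The counts by list are to be read beside the shares over all genes tested. Against Vector these shares were 13.4% higher and 10.8% lower, and against B4-4 they were 4.22% and 4.57%. By list, the effect on G2/M genes was higher than in Vector for 21 of 24 and differed from that in B4-4 for 0 of 24. Squamous genes were higher than in Vector for 18 of 22 and than in B4-4 for 11 of 22. For genes of the SRF and actin list the effect was lower than in B4-4 for 11 of 20 and than in Vector for 4 of 20. For other integrins it was lower for 10 and 7 of 17. For respiratory chain genes it was higher than in B4-4 for 15 of 25 and than in Vector for 0 of 25. SRF itself had differences of -1.16 (SE 0.17) against Vector and -1.49 (SE 0.17) against B4-4, and CYP1B1 of -6.07 (SE 0.43) and 2.65 (SE 0.43), with opposite signs. These tests share the Addback libraries, so the values against Vector and against B4-4 are not independent of each other. Each difference from B4-4 also rests on the B4-4 NA libraries, which were far apart in some named genes. For FOSB, B4-4 NA 1 had 1320 CPM but B4-4 NA 2 had 123 CPM, and for OSBP2 79.4 CPM but 222 CPM. Other genes were close in this pair, such as KRT16 with 135 CPM against 125 CPM. The part of this spread in the differences was not tested.

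**Figure D5:**
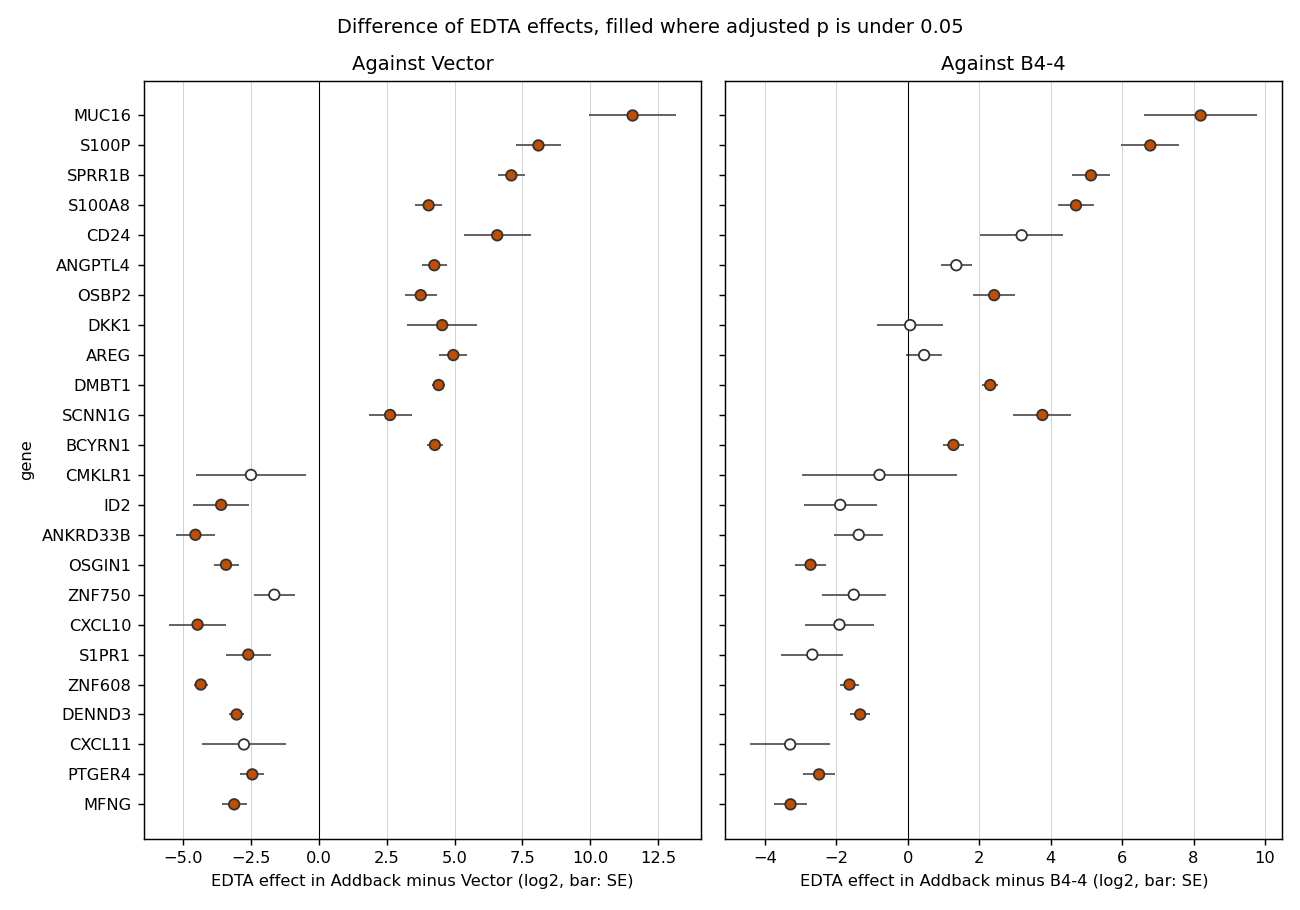
Difference of the EDTA effect in Addback from that in Vector (left) and B4-4 (right) on a log2 scale, with bars of 1 SE, for the 12 largest rises and 12 largest falls; filled points have an adjusted p under 0.05. The 12 rises all lie to the right in the left panel, where AREG stands at 4.95, and in the right panel AREG (0.46) and DKK1 (0.07) lie near 0. The genes were picked by their EDTA effect in Addback, which is part of each difference.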

How the data were processed

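The file the authors deposited gives raw counts of reads for each Ensembl gene, made from polyA RNA (250 ng input, stranded libraries with 300 bp inserts, 150 bp paired reads, per the labels' protocols). TopHat2 2.1.1, SAMtools 1.4.1 and featureCounts 1.5.3 and 3 build names (GRCh38, hg19, hg38, with no role stated) are named in the submitters' processing notes. The counting's strand setting and annotation release were not given in the sources used here. Reads of overlapping or antisense genes cannot be told apart.

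The analysis used edgeR 4.0.16 under R 4.3.3: filterByExpr over the 6 groups (15749 of 58233 genes kept), TMM factors, group means over all 12 libraries, robust quasi-likelihood dispersions and Benjamini-Hochberg adjustment over all genes tested. At least 99.87% of each library's counts lay in tested genes. A count of 3 corresponds to 0.135 to 0.191 CPM. Ratios near this floor carry exact 95% intervals. The test was checked on simulated data, where it recovered most changed genes but 22 of its 206 calls were false, a share above the 0.05 threshold. No simulated library was set apart as Addback EDTA 2 was. Coordinates are from GENCODE 29 (GRCh38) and promoter sequences from RefSeq (GRCh38.p14).

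The comparison and the 37 gene lists were chosen with earlier results of these data known. Named genes are ITGB4, ITGA6 and PROM2, the 12 largest called changes per direction among genes of at least 5 CPM with non-overlapping groups, up to 4 members per list with the smallest p, and the 8 largest ratios per direction between the EDTA libraries. Other members named within a list, and SRGN and GRIP1, were chosen after their values were seen. Alternatives were RLE and upper-quartile factors, no filter, DESeq2 1.42.0, no robust estimation, the replicate number as a block, the 4 Addback libraries alone, and leaving out single libraries or pairs. Some genes are not reported here.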

Additional observations from a re-analysis of the deposited data

Results flagged for a closer look

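For the genes listed here the EDTA effect differed between Addback and another derivative by the test of the difference itself (edgeR, adjusted p under 0.05), given here as Addback minus the other derivative on the log2 scale. Against Vector the effect was higher in Addback by 3.04 for PROM2, 11.56 for MUC16, 8.09 for S100P, 7.09 for SPRR1B, 4.04 for S100A8, 6.57 for CD24, 4.25 for ANGPTL4, 3.75 for OSBP2, 4.54 for DKK1, 4.95 for AREG, 4.41 for DMBT1, 2.62 for SCNN1G and 4.27 for BCYRN1. It was lower than in Vector for 9 genes, with differences of -3.61 for ID2, -4.56 for ANKRD33B, -3.43 for OSGIN1, -4.48 for CXCL10, -2.61 for S1PR1, -4.36 for ZNF608, -3.04 for DENND3, -2.46 for PTGER4 and -3.13 for MFNG. Of these 9 calls, that of S1PR1 (adjusted p = 0.0486, edgeR, from 0.000129 to 0.175 over all alternative fits) ended in 10 of the 12 fits that left out 1 library and that of ID2 (0.0391, from 0.000158 to 0.133) in 9. That of CXCL10 ended without Vector NA 1 or Vector EDTA 1 (up to 0.0679).

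Against B4-4 the effect was higher in Addback by 1.27 for PROM2, 8.2 for MUC16, 6.79 for S100P, 5.13 for SPRR1B, 4.71 for S100A8, 2.42 for OSBP2, 2.31 for DMBT1, 3.77 for SCNN1G and 1.28 for BCYRN1. It was lower than in B4-4 with differences of -0.81 for ITGA6, -2.72 for OSGIN1, -1.63 for ZNF608, -1.33 for DENND3, -2.48 for PTGER4 and -3.28 for MFNG. The call of DENND3 ended without B4-4 EDTA 1, B4-4 EDTA 2 or Addback NA 1 (adjusted p up to 0.0746, edgeR) and that of PTGER4 without B4-4 EDTA 1 (up to 0.0519). MUC16, S100P and SPRR1B had few counts in Addback NA, so their fitted differences depend on the prior count and are no bounds. Apart from PROM2 and ITGA6, the genes listed were picked by their EDTA effect in Addback, which is part of each difference.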

How the results depend on the processing

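The number of genes called in EDTA against NA in Addback was 2476 to 3163 under RLE and upper-quartile factors, no filter, DESeq2 and no robust estimation, and 2048 in the 4 Addback libraries alone. Upper-quartile factors lowered the share of rises among calls from 51.1% to 41.2%. Leaving out 1 library gave 615 to 4319, leaving out both B4-4 NA libraries 4306, and leaving out those and Addback EDTA 2, an alternative chosen after seeing the data, 3721. The difference from Vector ranged from 2138 to 5346 calls when 1 library was left out, and that from B4-4 from 403 to 2994, with 2103 without the filter. The cause was not tested. The share of genes at least 2-fold apart in the EDTA pair was 5.5% from 1 CPM and 1.23% from 20 CPM, and in the NA pair 0.848% and 0.0796%. With 2 libraries a group, leaving out 1 leaves a lone library that is assumed to vary like the other groups.

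The labels do not say whether the replicate numbers mark a shared culture or day, and they were not treated as pairs: the deviations of same-numbered libraries correlated at 0.134 for Vector, 0.11 for B4-4 and 0.022 for Addback across 10573 genes. With the replicate block the counts were 2511 for EDTA against NA, 3679 for the difference from Vector and 1335 for that from B4-4.

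Of the 161 called genes followed singly, 86 lost the call without some library, among them 8 of the 24 largest changes. COL17A1, EGR1 and MKI67, not called in the fit of all libraries, passed the test without B4-4 NA 1 or B4-4 NA 2. The values that changed sign for EDTA against NA were ITGA6 0.11 without EDTA 2, also with both B4-4 NA libraries left out (range -0.15 to 0.11), PROM2 0.05 without NA 1 (-0.23 to 0.05), and CDH1 -0.01 with upper-quartile factors and -0.32 without EDTA 2, also with both B4-4 NA libraries left out (-0.32 to 0.35). FN1 was 0.43 without EDTA 1 (-1.62 to 0.43), CLDN1 0.09 without NA 1 and 0.46 without EDTA 1 (-1.48 to 0.46), and CLDN4 -0.16 without EDTA 2, also with both B4-4 NA libraries left out (-0.16 to 2.32). FOSB was -0.51 under the block and -2.5 without EDTA 1 (-2.5 to 1.25), and JUN -0.01 with upper-quartile factors, -0.38 under the block, -0.1 without NA 2 and -1.56 without EDTA 1 (-1.56 to 0.76). For the difference from B4-4 they were ITGB4 0.01 with upper-quartile factors, 0.43 without B4-4 NA 1, 0.02 without B4-4 EDTA 2 and 0.12 without EDTA 1 (-0.68 to 0.43), DKK1 -0.27 under the block, -0.14 without B4-4 NA 2 and -1.63 without EDTA 2 (-1.63 to 0.83), AREG -0.34 without B4-4 NA 1 (-0.34 to 0.98) and CMKLR1 0.03 without B4-4 NA 2 (-3.25 to 0.03). The difference from Vector of ITGA6 was 0.02 without Vector EDTA 1 and 0.09 without EDTA 2 (-0.17 to 0.09).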
